A study of Mus musculus with 31 samples.

Results

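At birth (postnatal day 0, P0), RNA from the polysome pool of wild-type (WT) mouse neocortex was compared with RNA of the whole cleared lysate, gene by gene. The comparison rests on 6 of the 31 libraries of the series, 3 of polysome RNA and 3 of total RNA, chosen by their labelled genotype, age and RNA fraction and by no measured value. The neocortex is the layered sheet of the forebrain, in which neurons have largely been born by P0 and are extending axons and forming first synapses. Cleared lysates were spun through sucrose gradients in the presence of cycloheximide, which holds ribosomes in place on the mRNA. Each gradient was split into 14 fractions, of which fractions 9 to 12 formed the polysome pool and fractions 4 to 7 the pool of ribosomal subunits and single ribosomes, called monosome RNA here. All libraries were made from poly(A) RNA. The values set beside the comparison came from 3 WT P0 monosome libraries, from 2 polysome and 2 total RNA libraries of WT embryonic day 13 (E13) cortex, and from 3 polysome and 3 total RNA libraries of P0 cortex that lacks HuR conditionally (cKO), per the labels. The spread behind the WT tests was estimated from all 15 WT libraries, which also hold 2 E13 monosome libraries. HuR is the product of Elavl1, binds AU-rich stretches of mRNAs and is the protein this series was built around. The labels give neither a strain nor the Cre line, and they do not say whether a library came from 1 animal or from pooled cortices.

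An mRNA that is being translated usually carries several ribosomes at once and sediments with polysomes. One that is stored, repressed or never translated mostly stays in the lighter fractions. The number of ribosomes on an active mRNA also depends on how long its coding sequence is, since ribosomes follow each other along it. A lower level in the polysome pool thus does not by itself show that an mRNA is untranslated. Well-known groups that switch between these states are the mRNAs of the translation machinery, which carry a 5′ terminal oligopyrimidine (TOP) tract read by mTOR signalling, the ferritin mRNAs, which iron regulatory proteins hold back, and mRNAs with upstream open reading frames.

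Values are FPKM, fragment counts divided by transcript length and by library size, so a level says how abundant a transcript was relative to the other transcripts of its library. The FPKM of all genes summed to between 391659 and 435546 in the polysome libraries, against 426023 to 476287 in the total RNA libraries. The tables hold no counts. From the commonest ratio of low values between pairs of libraries, 1 fragment in a library was worth between 0.921 and 1.212 times its value in the median library of the 6, so the libraries were close in depth. All 12 cortex identity genes were tested, and their summed level was 979 to 1025 FPKM in polysome RNA, against 821 to 868 FPKM in total RNA. None of 18 hindbrain, midbrain and thalamus genes averaged 1 FPKM in either fraction. The choroid plexus gene Ttr was uneven between libraries, also between fractions of equal replicate number. It had 31.6, 36.03 and 471 FPKM in polysome RNA against 1.92, 30.9 and 651 FPKM in total RNA. The part of this variation in the results was not tested. In tissue lysates such as these, fewer cells of a type and less RNA per cell cannot be told apart.

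Polysome RNA differed from total RNA for a minority of the genes, and the larger differences were nearly all losses. Of 12123 genes tested, 1996 were called at an adjusted p under 0.05 (16.5%; limma's moderated test, Benjamini-Hochberg adjustment over all genes), with 812 higher (6.7%) and 1184 lower (9.77%) in polysome RNA. Among genes called higher the median log2 difference was 0.67, and 7 genes (0.0577%) reached a doubling on the log2(FPKM + 1) scale. Among genes called lower the median was -1.04, and 623 genes (5.14%) fell by 1 or more on that scale. The middle of all genes lay at 0.11, with the 5th percentile at -1.04 and the 95th at 0.66. Without any test, 3017 genes (24.9%) had all 3 polysome values above all 3 total RNA values, and 2068 (17.1%) had all 3 below. With the libraries rescaled by median ratios, which moved the middle of all genes to 0.04, the split was 410 higher (3.38%) and 1324 lower (10.9%), so the share of higher genes among the calls was 23.64% after rescaling and 40.68% without it. The count of higher genes rested on all 6 libraries: it was 191, 355 and 507 without polysome 0, 1 and 2, and 144, 249 and 192 without total RNA 0, 1 and 2, beside 727, 838, 1143, 771, 850 and 729 lower genes in the same order of libraries.

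**Figure D1:**
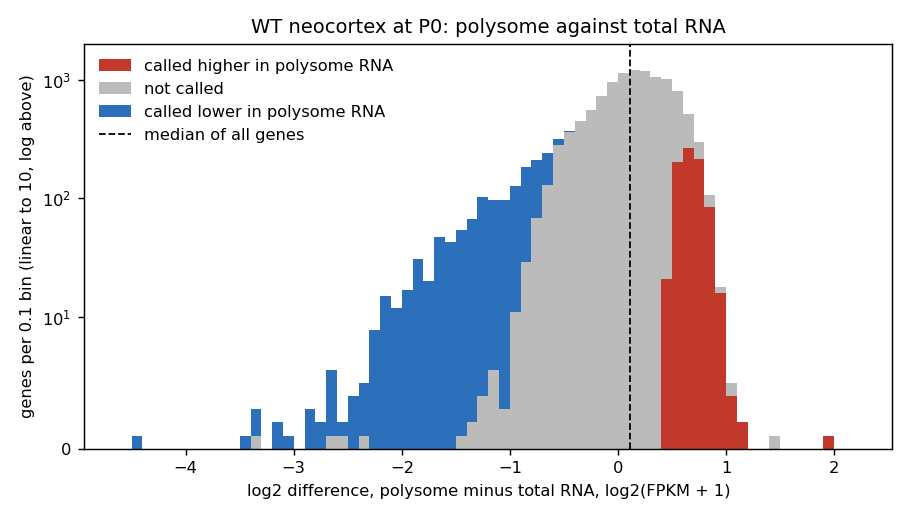
Histogram of the log2 difference, polysome minus total RNA, of the 12123 genes tested in WT P0 cortex, in bins of 0.1, with genes per bin on an axis that is linear to 10 and logarithmic above. The 1184 genes called lower form a long left tail, whereas the 812 called higher lie in a narrow band around 0.67.

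The genes that fell furthest in polysome RNA were a mixed group of ribosomal protein, iron storage, selenoprotein and non-coding genes. Rps12, a protein of the small ribosomal subunit (chromosome 10 from 23785183 to 23787275, minus strand, GRCm38), had 198, 213 and 284 FPKM in polysome RNA, against 2425, 2032 and 2560.0 FPKM in total RNA. Its polysome values lay an order of magnitude below its total RNA values (log2 difference -3.34 ± 0.35, SE, adjusted p = 6.12e-05). Rpl41, which encodes the smallest protein of the large subunit, had 322, 222 and 457 FPKM in polysome RNA, against 3146, 2716 and 2966 FPKM in total RNA (log2 difference -3.20 ± 0.45). Rps29 and Rps28, also of the small subunit, fell as well, with log2 differences of -3.06 and -2.74. Sepw1, a small selenoprotein, had 164, 137 and 272 FPKM in polysome RNA, against 1173, 1059 and 1361 FPKM in total RNA (log2 difference -2.70 ± 0.33). Pkig, an inhibitor of protein kinase A, had 8.84, 5.77 and 13.3 FPKM in polysome RNA, against 70.0, 59.5 and 89.8 FPKM in total RNA and fell by 2.89 (SE 0.27, adjusted p = 3.82e-05). For these genes no polysome library reached the lowest total RNA library. The other members of the 12 losses chosen by size were Fth1, Ftl1, Rian, H19, Lars2 and Amd1, and 10 of the 12 kept their call with any 1 of the 6 libraries left out, the exceptions being Lars2 and Amd1.

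Lars2, the mitochondrial leucyl-tRNA synthetase (chromosome 9 from 123366927 to 123462666, plus strand), had the largest fitted loss and the least even one. It stood at 19.6, 22.7 and 246 FPKM in polysome RNA, against 1790.0, 657 and 1141 FPKM in total RNA, and fell by 4.48 (SE 1.12, adjusted p = 0.0149). Polysome library 2 was more than 10 times above polysome libraries 0 and 1. Its adjusted p was 0.0717, 0.0629 and 0.0612 without polysome 0, polysome 1 and total RNA 0. The ribosomal RNA precursor Rn45s, which is no mRNA and was named after its values were seen, had the same unevenness, with 86.8, 67.6 and 560.2 FPKM in polysome RNA against 2099, 953 and 2184 FPKM in total RNA. Polysome library 2 held the highest of the 3 polysome values for 768 of the 1184 genes called lower (64.9%), as against 37.2% of all genes tested, and what sets it apart was not tested. Without that library 1143 genes were still called lower.

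**Figure D2:**
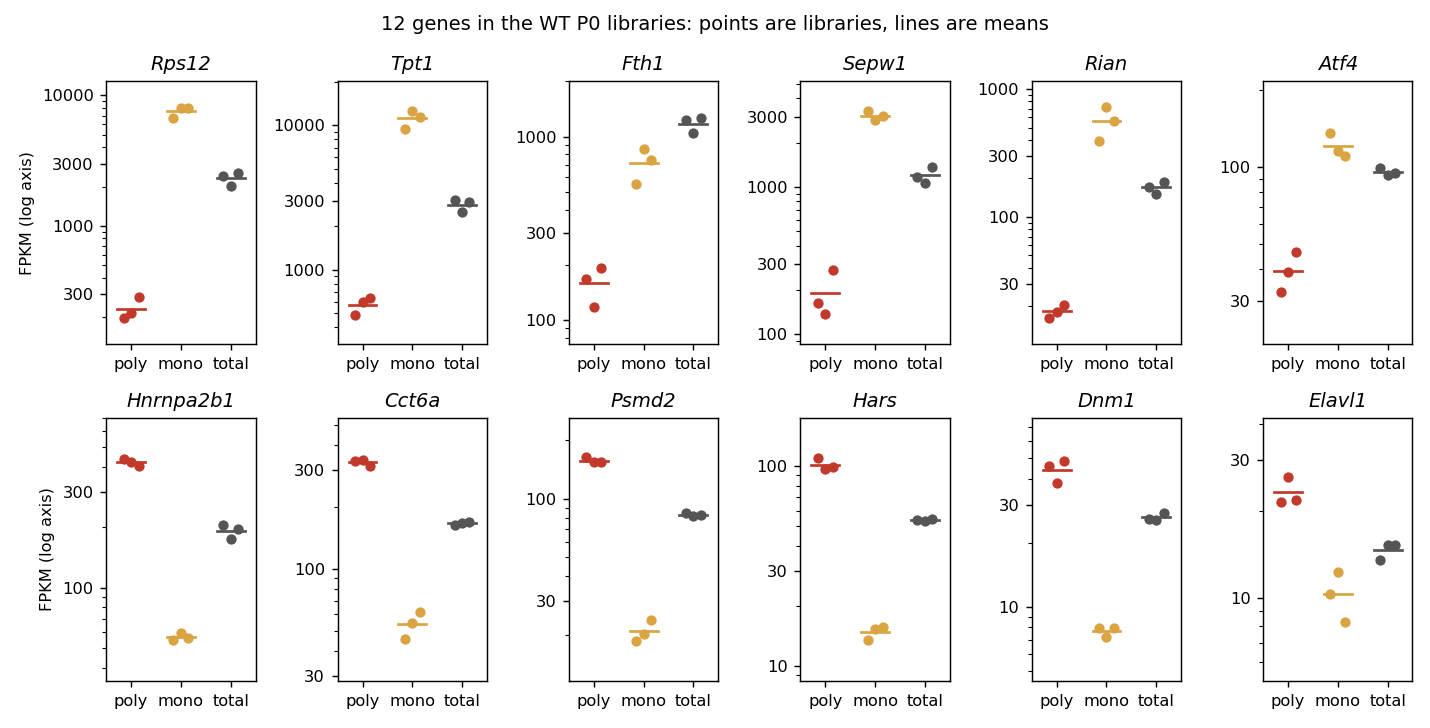
FPKM on a log axis of 12 genes in WT P0 cortex, in polysome, monosome and total RNA, with a point per library and a line at the mean of 3. In the upper row the polysome values lie below the total RNA values, and in the lower row above them, with Elavl1 among those above although it was not called.

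Ribosomal protein mRNAs, which encode the parts of the ribosome itself, had more lower members than any other list. Of 49 large-subunit genes 34 were lower and none higher in polysome RNA (median log2 difference -1.38), and of 33 small-subunit genes 31 were lower and none higher (median -1.42), beside 9.77% lower among all genes and a median of 0.11. Leaving out any 1 of the 6 libraries gave 27 to 33 large-subunit and 20 to 29 small-subunit genes called lower. Rplp0, a protein of the ribosomal stalk, had 238, 201 and 338 FPKM in polysome RNA, against 1161, 1019 and 1315 FPKM in total RNA (log2 difference -2.19 ± 0.29, adjusted p = 0.000187). The stalk proteins Rplp1 and Rplp2 also fell, with log2 differences of -2.60 and -2.21, and Rpl12 fell by 2.33. Rpl7 was one of the large-subunit members that were not called, at 728, 776 and 772 FPKM in polysome RNA against 1342, 1065 and 1278 FPKM in total RNA (log2 difference -0.69, adjusted p = 0.104). Ribosomal protein genes have many processed pseudogenes and the sequencing kit does not keep the strand, so how fragments were divided among copies is uncertain.

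Of 19 other mRNAs known for a TOP tract, 8 were lower and none higher (median -0.60), beside 9.77% lower among all genes. Tpt1, the translationally controlled tumour protein, had 488, 593 and 639.5 FPKM in polysome RNA, against 3015, 2515 and 2923 FPKM in total RNA (log2 difference -2.30 ± 0.30, adjusted p = 0.000187). Pabpc1, the cytoplasmic poly(A)-binding protein, had 43.6, 50.0 and 42.4 FPKM in polysome RNA, against 184, 137 and 181 FPKM in total RNA (log2 difference -1.85 ± 0.25). The elongation factor genes Eef1a1, Eef2 and Eef1b2 fell, with log2 differences of -1.42, -1.29 and -1.24, and Ybx1, a packaging protein of mRNA, fell by 1.56. Eef1a1 was still the most abundant of these in polysomes, at 2447, 2578 and 2251 FPKM, against 7038, 5806 and 6710.0 FPKM in total RNA. The coding sequences of these genes span 519 to 2577 bases.

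A TOP tract is a C followed by an unbroken run of pyrimidines at the first base of the mRNA. Whether a run near an annotated start is such a tract was not tested. For 2 members with such a run near the RefSeq start (GRCm38.p6), the 30 bases from 10 before to 20 after the annotated start are shown with the run in capitals, which begins downstream of the annotated start in Rps12 and upstream of it in Eef1a1, Rps12 from chr10:23787190-23787219 (minus strand) and Eef1a1 from chr9:78481705-78481734 (minus strand).
Rps12: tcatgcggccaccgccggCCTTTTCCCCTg
Eef1a1: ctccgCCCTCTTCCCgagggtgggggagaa
A run of at least 6 such bases, sought on the transcript's strand within 10 bases of the annotated start, was found for 42.2% of 64 ribosomal protein genes with an annotated start and for 16.6% of all 27025 RefSeq genes. Among ribosomal protein genes the median log2 difference was -1.38 with the run and -1.26 without it, and among other tested genes it was 0.12 both with and without. The run at the annotated start did not separate genes within either class. It fell short of 6 bases in other members of these lists, with 1 in Rps28 and Rpl12, 2 in Tpt1 and Eef2 and 3 in Rpl41 and Rplp0. A run sought this way can thus miss a TOP tract, and whether the tract itself goes with the difference was not tested.

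In monosome RNA the ribosomal protein mRNAs stood above total RNA. Monosome RNA was compared with the same 3 total RNA libraries, so these values share them with the polysome comparison. Of all genes 1295 (10.7%) were higher and 3295 (27.2%) lower in monosome RNA, and the median log2 differences of large- and small-subunit genes were 1.47 and 1.54, with 45 of 49 and 31 of 33 called higher. Rps12 had 6759, 8001 and 8058 FPKM in monosome RNA and Tpt1 9398, 12618 and 11472 FPKM. Eef1a1 was listed at 0 in all 3 monosome libraries, a value that may be a failed estimate for so abundant an mRNA.

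The ferritin mRNAs fell in polysome RNA and were not higher in monosome RNA either. Fth1, the heavy chain of the iron storage protein ferritin (chromosome 19 from 9980598 to 9985098, plus strand, GRCm38), had 168, 118 and 193 FPKM in polysome RNA, against 1228, 1049 and 1257 FPKM in total RNA (log2 difference -2.90 ± 0.29, adjusted p = 5.01e-05). Ftl1, the light chain (chromosome 7 from 45457944 to 45459884, minus strand), had 252, 174 and 351 FPKM in polysome RNA, against 1908, 1584 and 1921 FPKM in total RNA (log2 difference -2.85 ± 0.30, adjusted p = 6.12e-05). Both were also below total RNA in the monosome pool, Fth1 at 552, 859.8 and 742 FPKM (adjusted p = 0.0618, not called) and Ftl1 at 810.2, 959.5 and 916 FPKM (adjusted p = 0.0168). Slc40a1, the iron exporter ferroportin, had 2.04, 1.17 and 1.06 FPKM in polysome RNA, against 4.27, 4.69 and 4.88 FPKM in total RNA (log2 difference -1.23 ± 0.20), and Alas2, the first enzyme of heme synthesis in red cells, fell by 0.78 (adjusted p = 0.0163). Of 10 mRNAs known for an iron-responsive element, these 4 were lower and none was higher, beside 9.77% lower among all genes. The other 6 were not called. Alas2 belongs to blood cells, whose genes differed between libraries, the globin gene Hbb-b2 being called higher (log2 difference 0.85 ± 0.24), with an uncertain value since it has near-identical copies. The summed level of 14 erythroid genes was 178, 88.6 and 300 FPKM in polysome RNA, against 316, 119 and 329 FPKM in total RNA, and their part in both calls was not tested.

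The iron-responsive element is a hairpin near the 5′ end of these mRNAs whose loop is read by iron regulatory proteins. The loop regions below come from the GRCm38 genome and GENCODE M21 transcripts and show the loop CAGTGN in capitals, Fth1 from chr19:9982735-9982762 (plus strand), Ftl1 from chr7:45459777-45459804 (minus strand) and Slc40a1 from chr1:45925463-45925490 (minus strand).
Fth1: ctgcttcaaCAGTGCttgaacggaaccc
Ftl1: ttgcttcaaCAGTGTttgaacggaacag
Slc40a1: cttcagctaCAGTGTtagctaagtttgg
The pattern CNNNNNCAGTGN, sought on the transcript's strand without regard to pairing of the stem, occurs in 8.6% of the 11334 tested genes' 5′ leaders, and the median log2 difference was 0.13 with it and 0.13 without it.

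Several well-known non-coding RNAs were lower in polysome RNA. Rian, a maternally expressed non-coding RNA of the Dlk1-Dio3 imprinted region (chromosome 12 from 109603940 to 109661716, plus strand), had 16.1, 17.9 and 20.4 FPKM in polysome RNA, against 169.8, 151 and 189 FPKM in total RNA (log2 difference -3.16 ± 0.35, adjusted p = 7.76e-05). H19, the imprinted non-coding RNA beside Igf2, had 4.88, 2.48 and 5.24 FPKM in polysome RNA, against 53.5, 23.7 and 30.6 FPKM in total RNA and fell by 2.79. Meg3, from the same imprinted region as Rian, and the nuclear RNA Neat1 had log2 differences of -1.86 and -1.28 and were called. In monosome RNA Rian averaged 560.1 ± 166 FPKM (SD, n = 3), above its total RNA level (adjusted p = 0.00171). Of 19 long non-coding RNAs tested, 12 were lower and none higher (median -0.95). Among all lincRNA genes of the annotation, 39 of 89 (43.8%) were lower and none higher, so most were not called, beside 9.06% lower of 11674 protein-coding genes. Of 63 antisense genes 17 were lower, of 79 processed transcripts 29 were lower and 1 higher, and of 29 processed pseudogenes 7 were lower and 1 higher.

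Host genes of small nucleolar RNAs, whose spliced transcripts are mostly non-coding, were mostly lower too. Of 15 tested, 12 were lower and none higher (median -1.77), beside 9.77% lower among all genes. Snhg12 had 8.99, 9.60 and 11.4 FPKM in polysome RNA, against 49.3, 43.4 and 45.6 FPKM in total RNA (log2 difference -2.10 ± 0.25). Snhg8, Snhg1 and Gas5 fell too, with log2 differences of -2.19, -2.06 and -1.82. Gas5 is known for a TOP tract of its own, and it stood at 1.34, 1.63 and 1.19 FPKM in polysome RNA, against 7.88, 8.07 and 6.36 FPKM in total RNA.

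Among mRNAs governed by upstream open reading frames (uORFs), the stress transcription factors stood out. Atf4, the effector of the integrated stress response (chromosome 15 from 80255184 to 80257541, plus strand), had 32.4, 39.0 and 46.5 FPKM in polysome RNA, against 99.6, 93.3 and 94.5 FPKM in total RNA (log2 difference -1.28 ± 0.25, adjusted p = 0.00319). Ddit3, which encodes the stress factor CHOP, had 4.70, 5.76 and 8.12 FPKM in polysome RNA, against 19.4, 16.7 and 16.9 FPKM in total RNA (log2 difference -1.40 ± 0.22, adjusted p = 0.000629). Neither polysome range overlapped its total RNA range. The other 8 of 10 tested members were not called, and 9.77% of all genes were lower. The nearest was Atf5, a relative of Atf4, at -0.64 (adjusted p = 0.0511), which was called with a replicate block (adjusted p = 0.0211).

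Amd1, which makes the decarboxylated S-adenosylmethionine that polyamine synthesis needs, is known to be held back by a short uORF. Its values are uncertain. Amd1 was listed at 0.00204, 0.00178 and 0.00198 FPKM in polysome RNA, against 6.29, 18.1 and 7.21 FPKM in total RNA, and its copy Amd2 at 11.7, 15.5 and 10.1 FPKM in polysome RNA, against 28.5, 29.1 and 25.1 FPKM in total RNA. The annotated transcripts of both share an identical stretch of 930 bases, so fragments may have been divided between them unevenly. Their summed level was 11.7, 15.5 and 10.1 FPKM in polysome RNA, against 34.8, 47.1 and 32.3 FPKM in total RNA, so the sum was also lower in every polysome library. Amd2 alone fell by 1.11 (SE 0.27, adjusted p = 0.0123). Odc1, the first enzyme of the pathway, was not called (-0.34, adjusted p = 0.393), and Azin1, an inhibitor of the antizyme that degrades it, rose by 0.61 (adjusted p = 0.0149). Azin1 lost its call without each library but polysome 2 (adjusted p up to 0.0626). Of 15 polyamine genes, 2 were higher and 2 lower, beside 6.7% higher and 9.77% lower among all genes.

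The uORFs of Amd1 and of Atf4 (its short first uORF) are shown with start and stop codons in capitals, Amd1 from chr10:40302155-40302175 (minus strand) and Atf4 from chr15:80255582-80255593 (plus strand), both GRCm38.
Amd1: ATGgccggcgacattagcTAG
Atf4: ATGgcgtatTAG
A complete uORF of at most 30 bases occurs in 29% of the 11334 leaders, with a median log2 difference of 0.12 beside 0.13 for leaders without one.

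Selenoproteins, which read a stop codon as selenocysteine, were mixed. Of 14 tested, 4 were lower and 1 higher (median -0.18), beside 9.77% lower and 6.7% higher among all genes. Gpx4, the peroxidase that protects membrane lipids, had 43.9, 42.8 and 68.3 FPKM in polysome RNA, against 203, 165 and 214 FPKM in total RNA (log2 difference -1.91 ± 0.25, adjusted p = 0.000187). Gpx1, another peroxidase, and the selenium carrier Sepp1 fell, with log2 differences of -1.24 and -1.12. The thioredoxin reductase Txnrd3 was higher by 0.56 (adjusted p = 0.0338), a call that ended under median ratio rescaling (0.48, adjusted p = 0.0697).

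The length of the coding sequence went with the difference across all protein-coding genes. Each gene was given the longest coding sequence among its annotated transcripts, which may not be the one expressed in cortex. With ribosomal protein genes left out, genes with at most 300 coding bases had a median log2 difference of -0.85, and 109 of 213 (51.2%) were lower and none higher. The median was -0.44 for genes of more than 300 and up to 450 bases and -0.13 for those up to 600 bases. It reached 0.21 between 1500 and 3000 bases, where 332 of 3729 genes (8.9%) were higher and 129 (3.46%) lower, and was 0.01 for the 268 genes above 6000 bases. Across 11592 genes the Spearman correlation of coding length with the log2 difference was 0.216, a description over genes that share the same 6 libraries. Ribosomal protein genes had a lower median than other genes in every length bin they occupy. The medians were -2.56 for ribosomal protein and -0.85 for other genes up to 300 bases, -1.49 and -0.44 up to 450, -1.21 and -0.13 up to 600, -0.94 and 0.06 up to 900, and -1.04 and 0.17 up to 1500 bases, each bin starting where the last one ends. The WT medians by length of the 3′ and 5′ untranslated regions showed no such gradient, lying between 0.10 and 0.14 in every bin. The shares of calls went with 3′ length from 7.86% higher and 11.2% lower up to 250 bases to 4.18% and 5.38% from 4001 bases. In the cKO libraries the medians of the same 3′ bins went from 0.17 to -0.23.

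**Figure D3:**
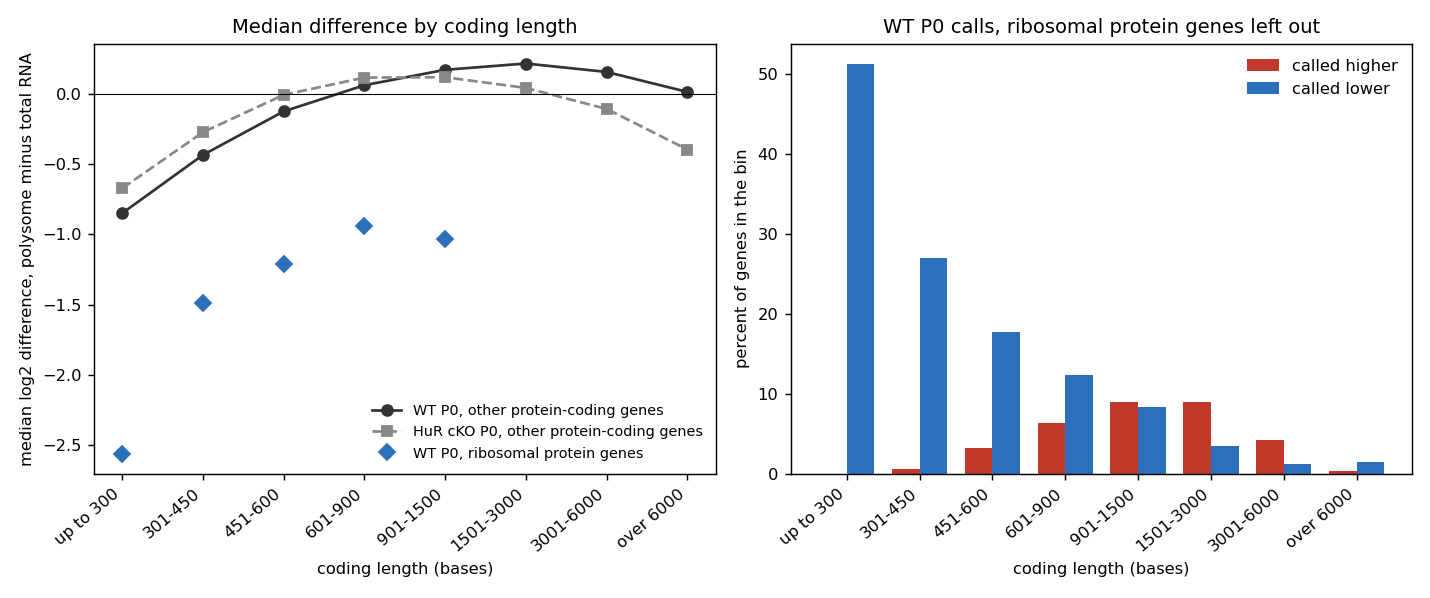
Left, median log2 difference of polysome minus total RNA against coding length in bases, for WT P0 genes other than ribosomal protein genes, for the same genes in the cKO libraries and for WT ribosomal protein genes. Right, percent of WT P0 genes per bin called higher or lower. Medians climb from -0.85 in the shortest bin to 0.21 between 1500 and 3000 bases, and ribosomal protein genes lie below other genes of their length.

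The respiratory chain is built from nuclear-encoded subunits of very different size. Of 75 subunits 18 were lower and 6 higher (median -0.19), beside 9.77% lower and 6.7% higher among all genes. The lower ones had a median coding length of 250.5 bases (159 to 1407) and the higher ones of 1492.5 bases (1134 to 2184). The longest lower one, the complex I subunit Ndufv3, had 67.3, 58.0 and 82.0 FPKM in polysome RNA, against 229, 183 and 231 FPKM in total RNA (log2 difference -1.62 ± 0.31). Cox8a, a small subunit of cytochrome c oxidase, had 65.6, 67.6 and 80.9 FPKM in polysome RNA, against 288, 249 and 276 FPKM in total RNA (log2 difference -1.91 ± 0.34). Atp5e, the epsilon subunit of ATP synthase, fell by 1.74, and the complex I subunits Ndufa2 and Ndufb9 had log2 differences of -1.79 and -1.41. Atp5b, the catalytic beta subunit of ATP synthase, had 877, 880.5 and 891 FPKM in polysome RNA, against 488, 472 and 502 FPKM in total RNA (log2 difference 0.86 ± 0.25, adjusted p = 0.03), a call that ended under median ratio rescaling (adjusted p = 0.0501). Sdha, the flavoprotein of succinate dehydrogenase, rose by 0.75. The higher calls were 1, 2 and 3 without polysome 0, 1 and 2 and 0, 0 and 2 without total RNA 0, 1 and 2, and the lower ones 11, 15 and 19 and 11, 14 and 11. Mitochondrial ribosomal proteins had a median of 0.10, close to that of all genes, with 2 higher and 4 lower of 56, the lower ones with 198 to 504 coding bases.

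The 12 gains described next are the largest among annotated genes of at least 5 FPKM whose libraries did not overlap. Larger fitted gains, up to 1.99, occurred among called genes outside those limits. Hnrnpa2b1, a nuclear and dendritic RNA-binding protein (chromosome 6 from 51460932 to 51469894, minus strand), had 438, 420.2 and 402 FPKM in polysome RNA, against 205, 175 and 197 FPKM in total RNA. Its mean was 2.18 times higher in polysome RNA (log2 difference 1.12 ± 0.20, adjusted p = 0.00133). Ssb, the La protein that binds new polymerase III transcripts, had 99.9, 124 and 98.5 FPKM in polysome RNA, against 46.1, 51.2 and 57.8 FPKM in total RNA (log2 difference 1.04 ± 0.22). Next came Fam98b (1.02), a part of the tRNA ligase complex, the peroxiredoxin Prdx1 (1.01), the kinetochore protein Zwint (104, 107 and 106 FPKM in polysome RNA, against 54.1, 51.5 and 51.7 FPKM in total RNA) and the chaperonin subunit Cct6a (0.99). The rest of the 12 were the reductase Cyb5r3 (0.98), Ssrp1 (0.96), a subunit of the histone chaperone FACT, Paf1 (0.94), an elongation factor of RNA polymerase II, Aatf (0.93), Ifi27l1 (0.93) and Nsfl1c (0.92), a cofactor of the p97 ATPase. All 12 lay in a range from 0.92 to 1.12, much narrower than the losses. With any 1 of the 6 libraries left out, Hnrnpa2b1, Ssb, Fam98b, Cyb5r3, Paf1 and Aatf kept their call. Prdx1 lost it without each library in turn (adjusted p up to 0.0932), Zwint and Cct6a without each but polysome 2 (up to 0.066 and 0.0682), Nsfl1c without polysome 0 or any total RNA library (up to 0.057), Ssrp1 without total RNA 2 (0.0546) and Ifi27l1 without total RNA 1 (0.056).

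Proteasome subunits, which form the main protease of the cytosol, all had a log2 difference above 0. Of 31 subunits 19 were higher and none lower (median 0.76), beside 6.7% higher among all genes, and 29 had all polysome values above all total RNA values, beside 24.9% of all genes. Psmd2, a base subunit of the regulatory particle, had 163, 154 and 154 FPKM in polysome RNA, against 84.1, 81.8 and 82.8 FPKM in total RNA (log2 difference 0.91 ± 0.17, adjusted p = 0.00188). Psmd12 and Psmd6 of the lid rose by 0.91 and 0.90, the ATPase Psmc6 by 0.81, Psmd1 by 0.80 and the deubiquitinase Psmd14 by 0.72. In monosome RNA the proteasome list stood below total RNA (median -1.45, 28 of 31 lower), with Psmd2 at 18.6, 20.3 and 23.7 FPKM. The number called higher was 15 under median ratio rescaling and 28 with only the 6 libraries in the fit. It dropped to 8, 7 and 10 without polysome 0, 1 and 2, and to 5, 5 and 6 without total RNA 0, 1 and 2, with none lower in any of these fits.

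Aminoacyl-tRNA synthetases, which charge tRNAs, and the chaperonin that folds actin and tubulin also held several higher members. Of 23 synthetase genes 10 were higher and 1 lower (median 0.55), beside 6.7% higher and 9.77% lower among all genes. Hars, for histidine, had 109.5, 96.6 and 98.8 FPKM in polysome RNA, against 54.0, 53.0 and 54.5 FPKM in total RNA (log2 difference 0.90 ± 0.21, adjusted p = 0.0105). Yars, Dars, Farsa, Nars and Cars, for tyrosine, aspartate, phenylalanine, asparagine and cysteine, rose by 0.82, 0.81, 0.75, 0.72 and 0.64. The Cars call ended under median ratio rescaling (0.56, adjusted p = 0.0511). The lower one was Qars, for glutamine (-0.61). Higher synthetases numbered 3, 5 and 7 without polysome 0, 1 and 2, and 4, 4 and 2 without total RNA 0, 1 and 2. Of 21 chaperonin and heat shock genes 8 were higher and 1 lower (median 0.55), with Cct8 at 217, 227 and 197 FPKM in polysome RNA, against 116, 113 and 121 FPKM in total RNA (log2 difference 0.87 ± 0.22). Cct7 and Cct3 rose by 0.87 and 0.80, and the mitochondrial chaperone Hspa9 by 0.74 (not called under rescaling, adjusted p = 0.0549), whereas its small partner Hspe1, with 309 coding bases, fell by 0.89. No list member was called higher with 1 library left out, except without polysome 2, where 4 were.

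**Figure D4:**
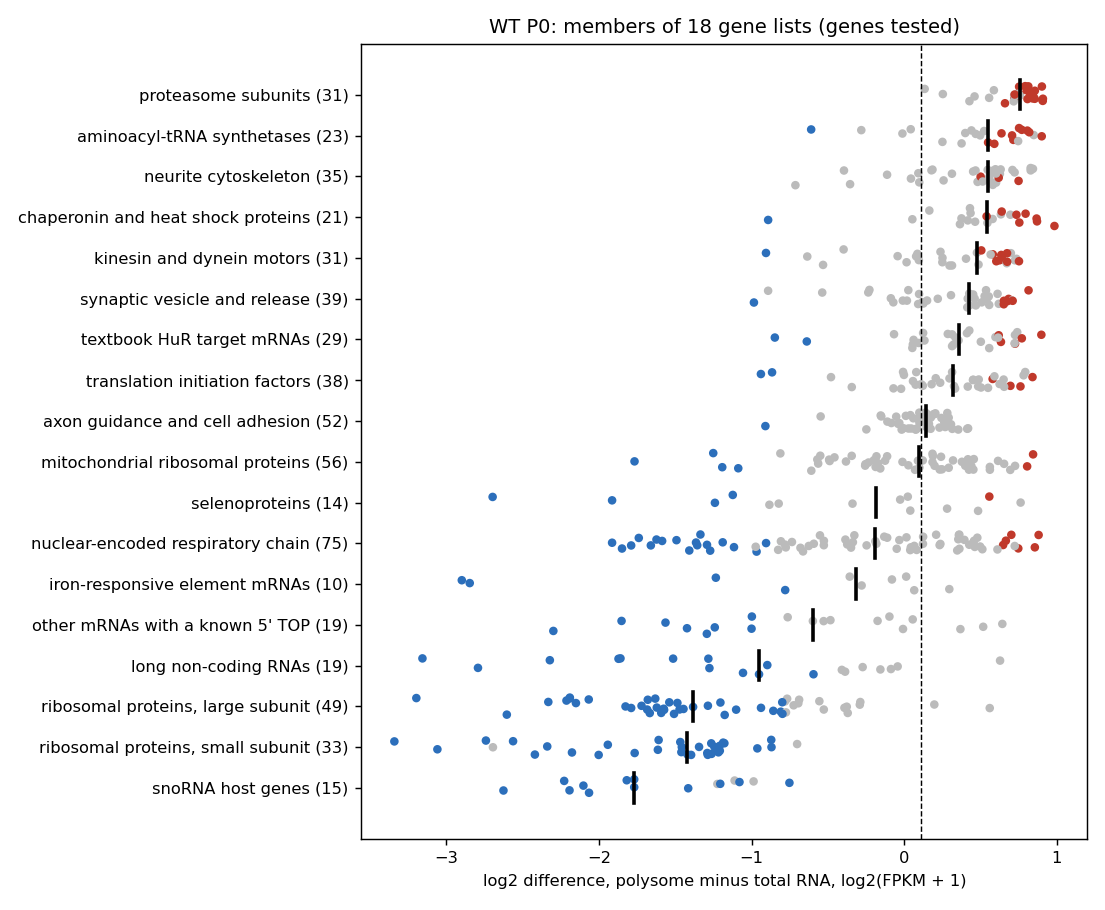
Log2 difference of polysome minus total RNA for every tested member of 18 gene lists in WT P0 cortex, with the number tested in brackets. Red points were called higher, blue points lower and grey points not called. Bars mark list medians, from 0.76 for proteasome subunits to -1.77 for small nucleolar RNA host genes, and the dashed line marks the median of all genes at 0.11.

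Of 38 translation initiation genes, a list that also holds repressors of initiation, 4 were higher and 2 lower (median 0.32), beside 6.7% higher and 9.77% lower among all genes. The subunits Eif2b3, Eif2b2 and Eif2b4 of the exchange factor eIF2B rose by 0.84, 0.70 and 0.58, and Eif3b of the eIF3 scaffold by 0.76, with 75.4, 72.6 and 73.6 FPKM in polysome RNA against 41.0, 42.8 and 45.7 FPKM in total RNA. Eif2b4 lost its call under rescaling (adjusted p = 0.0853). Eif3b, Eif2b4 and the repressor Eif4ebp1 lost theirs without each of the 6 libraries in turn (adjusted p up to 0.097, 0.15 and 0.127), Eif2b2 without polysome 0 or 2 or total RNA 0 or 1 (up to 0.0977), and Eif2b3 without polysome 1 or total RNA 0 or 2 (up to 0.0528). Eif4ebp2, the main eIF4E-binding repressor of neurons, had 14.7, 14.8 and 15.5 FPKM in polysome RNA, against 27.96, 29.9 and 26.5 FPKM in total RNA (log2 difference -0.87 ± 0.20, adjusted p = 0.0083). Its relative Eif4ebp1 fell by 0.94 (adjusted p = 0.0365), and both have short coding sequences, of 363 and 354 bases. Among 29 genes of mTOR signalling, the kinase Akt1 fell by 1.15. It had 72.4, 58.3 and 100.5 FPKM in polysome RNA, against 170.4, 159 and 175 FPKM in total RNA, and its coding sequence has 1443 bases. Eef2k, the kinase that inactivates elongation factor eEF2, and Ddit4, an inhibitor of mTOR, were higher by 0.56 and 0.61, and neither call held under median ratio rescaling (adjusted p = 0.077 and 0.073).

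Of 36 RNA-binding proteins of neurons 4 were higher and 1 lower (median 0.17), beside 6.7% higher and 9.77% lower among all genes. Msi1, the Musashi protein of neural stem cells, was the member that fell, with 14.1, 13.4 and 21.1 FPKM in polysome RNA, against 35.9, 37.97 and 42.1 FPKM in total RNA (log2 difference -1.23 ± 0.18, adjusted p = 0.000392). It stood at 96.2, 103 and 92.4 FPKM in monosome RNA, above its total RNA values. The splicing regulator Nova2 rose by 0.68, with 49.0, 40.9 and 44.0 FPKM in polysome RNA against 27.9, 27.7 and 26.3 FPKM in total RNA. Elavl1 itself (chromosome 8 from 4285382 to 4325413, minus strand) had 21.5, 26.2 and 21.8 FPKM in polysome RNA, against 13.5, 15.2 and 15.2 FPKM in total RNA. Its ranges did not overlap, but the difference of 0.62 ± 0.30 was not called (adjusted p = 0.174), except with only the 6 libraries in the fit (adjusted p = 0.014).

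Of 29 textbook HuR target mRNAs 5 were higher and 2 lower (median 0.36), beside the same shares of all genes. Hmgb1, an abundant chromatin protein, had 684, 621 and 628 FPKM in polysome RNA, against 374, 302 and 362 FPKM in total RNA (log2 difference 0.90 ± 0.24). Trp53, which encodes p53, Cdkn1b, a brake of the cell cycle, and Hif1a, the hypoxia factor, rose by 0.77, 0.73 and 0.63. Xiap, an inhibitor of apoptosis, had 6.78, 7.86 and 7.53 FPKM in polysome RNA, against 13.4, 13.8 and 15.1 FPKM in total RNA (log2 difference -0.85 ± 0.20), and Vegfa, the vascular growth factor, fell by 0.64. Marcks, an actin-binding membrane protein, was the other higher member. Higher members numbered 1, 2 and 4 without polysome 0, 1 and 2, and 0, 2 and 2 without total RNA 0, 1 and 2.

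Neuronal structural mRNAs lay above the middle of all genes, and most were not called. Neurite cytoskeleton genes had a median of 0.55 over 35 genes, with 3 higher. Motor genes had a median of 0.48 over 31 genes, with 9 higher and 1 lower. Among all genes 6.7% were higher and 9.77% lower. Nefm, the medium neurofilament, had 40.9, 42.8 and 31.5 FPKM in polysome RNA, against 23.0, 24.4 and 19.6 FPKM in total RNA (log2 difference 0.75 ± 0.21, adjusted p = 0.023). The dynein genes Dync1li1 and Dync1i2 and the dynactin gene Dctn2 rose by 0.75, 0.68 and 0.67, while the small light chain Dynlrb1, with 315 coding bases, fell by 0.91. Marcks rose by 0.62, a call that ended with a replicate block (adjusted p = 0.065) and under rescaling (adjusted p = 0.0909). Neurite genes called higher were 0 or 1 whichever of the 6 libraries was left out. Motor genes called higher were 1, 2 and 5 without polysome 0, 1 and 2, and 1, 2 and 1 without total RNA 0, 1 and 2, and rescaling left 1 neurite and 3 motor genes.

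Of 39 synaptic vesicle and release genes 6 were higher and 1 lower (median 0.43), beside 6.7% higher and 9.77% lower among all genes. Dnm1, the dynamin that retrieves vesicles, had 45.8, 38.1 and 48.2 FPKM in polysome RNA, against 26.0, 25.6 and 27.7 FPKM in total RNA (log2 difference 0.71 ± 0.17, adjusted p = 0.0121). Nsf, which takes fused complexes apart, rose by 0.68, and Erc2, an active zone scaffold, fell by 0.98. Higher members numbered 2, 4 and 4 without polysome 0, 1 and 2, and 1, 2 and 3 without total RNA 0, 1 and 2. None of 17 glutamate receptor genes was called (median 0.24), whereas the GABA-A receptor subunit Gabra5 fell by 0.95. Gabra5 had 24.7, 23.9 and 20.7 FPKM in polysome RNA, against 41.3, 45.2 and 49.8 FPKM in total RNA (adjusted p = 0.0105). Homer2, a postsynaptic scaffold, fell by 1.05. Among 52 axon guidance and adhesion genes only Unc5a, a netrin receptor, was called (-0.91 ± 0.27, adjusted p = 0.0308), and the list median of 0.14 was close to that of all genes.

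Few genes that mark cell types or layers were called. None of 12 cortex identity genes was called (median 0.22). The lists of neuronal layers, interneurons, progenitors, glia, vessels and meninges had 0 or 1 call each. The one with the largest difference was Tyrobp, the microglial adaptor DAP12 with 345 coding bases, at 4.98 ± 0.293 FPKM in polysome RNA against 19.6 ± 2.29 FPKM in total RNA (SD, n = 3 each; log2 difference -1.78 ± 0.21, adjusted p = 8.88e-05). The other 13 microglial genes were not called. Of 22 subunits of the BAF chromatin remodeler 2 were higher and 2 lower, and of 26 splicing factors of the SR and CLK list 3 were higher and 1 lower. These counts stand beside 6.7% higher and 9.77% lower among all genes. None of 5 replication-dependent histone genes was called.

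The same comparison in the libraries labelled HuR cKO shares no library with the WT one and gave mostly the same directions. Of 12302 genes tested there, 633 (5.15%) were higher and 796 (6.47%) lower in polysome RNA. Of the 812 genes called higher in WT, 803 (98.89%) had the same sign in cKO, beside 49.4% of all genes above 0 there, and 228 were called in both, which is 28.08% of the WT and 36.02% of the cKO calls. Of the 1184 genes called lower in WT, 1179 were tested in cKO and 1176 of those (99.75%) had the same sign. Both called 626 of them, 52.87% of the WT and 78.64% of the cKO calls. No gene was called in opposite directions. Across 12001 genes the Pearson correlation of the log2 differences was 0.792 and the Spearman correlation 0.78, as a description over genes that are not independent.

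Single genes had the same directions in cKO cortex, with Amd1 as an exception. Rps12 had 702, 396 and 349.7 FPKM in polysome RNA of cKO cortex, against 1268, 3955 and 2585 FPKM in its total RNA (log2 difference -2.35, adjusted p = 0.00285). Fth1 averaged 239.5 ± 64.4 FPKM in polysome RNA against 1261 ± 510.2 FPKM in total RNA (SD, n = 3 each, log2 difference -2.35), and Rian had 26.7, 17.4 and 15.1 FPKM in polysome RNA against 122, 159 and 178 FPKM in total RNA (log2 difference -2.92). Ribosomal protein genes were lower for 13 of 49 large-subunit members, with 1 higher, and for 9 of 33 small-subunit members (medians -0.86 and -0.88), and proteasome subunits higher for 23 of 31 (median 0.88). Amd1 had a log2 difference of 0.01 there and was not called (adjusted p = 0.997), while Amd2 was lower (log2 difference -1.75, adjusted p = 0.0406). The cKO counts leaned on single libraries: 244 to 532 genes were called without polysome column c0, c1 or c2, and 954, 1551 and 616 without total RNA column c0, c1 and c2, against 1429 with all of them.

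**Figure D5:**
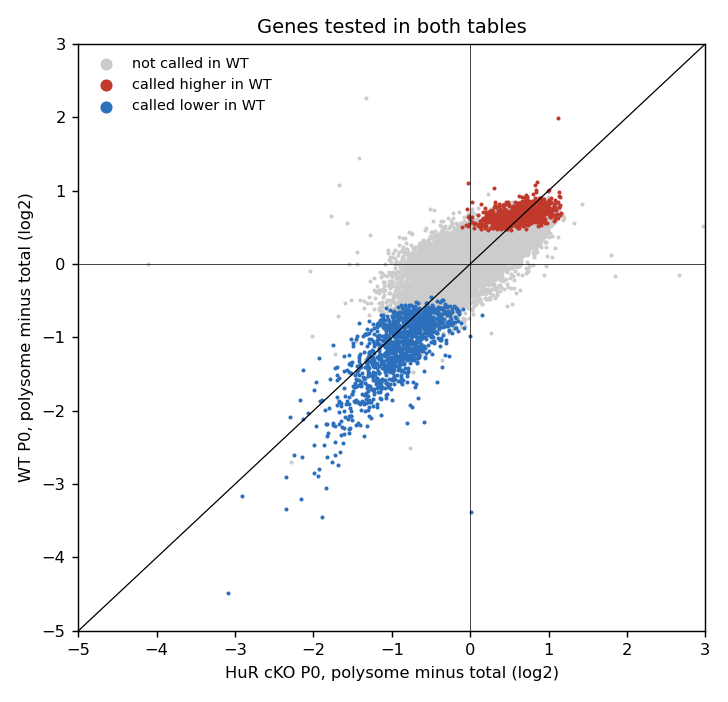
Log2 difference of polysome minus total RNA in WT P0 cortex (vertical) against the same in HuR cKO P0 cortex (horizontal) for genes tested in both tables, coloured by their WT call, with a line of equality. Of the genes called lower in WT, 1176 of 1179 lie below 0 on both axes, and of the 812 called higher 803 lie above 0 on both.

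Whether the polysome difference itself differed between genotypes was tested in 1 fit of all 31 libraries. None of 12233 genes passed limma's test (0%), with 140 at an unadjusted p under 0.05, so no gene is named. As a description, the ribosomal protein mRNAs lay further below total RNA in WT than in cKO cortex, by a median of -0.50 for large-subunit and -0.62 for small-subunit genes, with no difference above 0 in either list. Axon guidance and adhesion genes lay the other way, with a median log2 difference of 0.14 in WT and -0.58 in cKO cortex and 50 of 52 differences above 0, beside 6569 of 12233 over all genes. Glutamate and GABA-A receptor genes had medians of 0.64 and 0.75 for WT minus cKO, where all genes had 0.03, and these moved between 0.21 and 0.91 and between 0.40 and 1.05 with 1 library left out. Lists of non-neuronal cells were mixed. Medians were 0.56 for meninges and choroid plexus, 0.49 for endothelium and mural cells and 0.47 for astrocytes, with 13 of 14 differences above 0 in each. Microglia had 0.28 (10 of 14 above 0), the oligodendrocyte lineage 0.03 (4 of 8) and erythroid cells -0.16 (2 of 11). The endothelial median moved between -0.001 and 0.72 with 1 library left out. The part of these lists in the neuronal values was not tested. Leaving out 1 library at a time moved the axon guidance median between 0.21 and 1.07 and those of the ribosomal lists between -0.78 and -0.10 and between -0.91 and -0.20, so their size rests on single libraries.

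At E13 the polysome comparison of WT cortex, with 2 libraries per fraction, called 1582 genes higher (13%) and 970 lower (8%). Ribosomal protein genes had medians of -0.80 for the large and -0.98 for the small subunit there, with 19 and 13 lower, and proteasome subunits a median of 0.96, with 19 higher. Fth1 had 246 and 202 FPKM in E13 polysome RNA, against 839 and 985 FPKM in E13 total RNA (log2 difference -2.02, adjusted p = 0.00259). Msi1 stood at 125 and 121 FPKM in E13 polysome RNA, against 83.1 and 80.8 FPKM in E13 total RNA (log2 difference 0.58, adjusted p = 0.0727), so it was not called at E13, and the difference between ages was not called either (P0 minus E13 -1.81, adjusted p = 0.072). It was called without a filter on low values (adjusted p = 0.0439) and without P0 polysome 2 (0.00951), and its adjusted p lay between 0.055 and 0.638 in the other alternatives. The change from E13 to P0 in the difference itself was called for 1 of 12123 genes (0.00825%), a small nucleolar RNA gene, with 466 genes at an unadjusted p under 0.05. No gene met the rule for naming, and with 2 libraries per fraction at E13 a p that misses the threshold does not show that the ages are alike.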

How the data were processed

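RNA of WT and HuR cKO mouse neocortex at E13 and P0 was sequenced from polysome pools, monosome pools and total lysate. Libraries were made with the TruSeq kit and read from both ends, per the labels' protocols. Reads were handled with Bowtie2 2.0.5.0, TopHat2 2.0.6 and Cuffdiff (builds mm10 and GRCm38), per the submitters' processing notes. Which gene models were used, and how libraries were scaled, is not given in the sources used here. FPKM values were deposited by the authors, in one table for 15 WT and another for 16 cKO libraries, with 23284 genes each, of which 26 with dates or bare numbers as names were left out. FPKM are relative to the rest of a library, so a loss of a few very abundant mRNAs raises all others. 

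The tests used limma 3.58.1 in R 4.3.3 on log2(FPKM + 1) (moderated, two-sided, with an intensity trend) for genes with a mean of at least 1 FPKM over the libraries fitted. The fit of 15 WT libraries held 6 groups, and the cKO table was fitted in the same way. The genotype difference came from a joint fit of 31 libraries. Calls are genes whose Benjamini-Hochberg adjusted p, over all genes tested, was under 0.05. A log2 difference on this scale understates the change of lowly expressed genes. The test was tried on simulated data first. Alternatives were a pseudocount of 0.1, no filter, a mean of at least 5 FPKM, median ratio rescaling, only the libraries compared, a replicate block and leaving out each library.

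Equal replicate numbers pair the WT P0 fractions: the 9 correlations of deviations from group means ran from 0.207 to 0.734 for equal numbers (0.563, 0.502 and 0.734 between polysome and total RNA) and none exceeded 0.0172 for unequal numbers. Deviations from a group mean cancel within the group, so positive values for equal numbers lower those for unequal numbers. The low values for unequal numbers are therefore no separate evidence of pairing. The titles carry the numbers and do not state what they mark. All p-values measure library-to-library spread only, which may be technical.

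The text names, per direction, the 12 called genes of largest difference, with a mean of at least 5 FPKM in the higher group and no overlap of libraries, without predicted and small RNA genes. It also names Elavl1 and up to 6 members of each list in order of adjusted p, and by choice after their values were seen Rpl7, Odc1, Atp5b, Sdha, Qars, Hbb-b2, Rn45s and Ttr. The members and the 48 gene lists (1284 entries, 1225 matched by symbol, 23 by synonym, 33 unmatched and 3 duplicates, none of the mitochondrial genome list matched) were chosen with earlier results of these data known. Lists are described by counts and medians, with no set test. Coding length, taken from the annotated transcript with the longest coding sequence, was available for 96.4% and a biotype for 99.1% of tested genes from GENCODE M21 (GRCm38). Some genes that the rule picks are not reported here.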

Additional observations from a re-analysis of the deposited data

Results flagged for a closer look

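The small nucleolar RNA gene Snora65 was the single gene whose polysome difference was called as changed between P0 and E13, by 6.26 on the log2 scale (adjusted p = 3.46e-05, limma). It was named after its values were seen. At P0 it was listed at 0, 0 and 0 FPKM in polysome RNA, against 0.467, 0 and 0 FPKM in total RNA. At E13 it was listed at 0 and 0 FPKM in polysome RNA, against 44.2 and 167 FPKM in total RNA. The flag thus rests on 2 total RNA libraries of E13 cortex. A cause was not tested. Groups of 3 libraries were too small for the search for outlying libraries.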

How the results depend on the processing

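With only the 6 P0 polysome and total RNA libraries in the WT fit, 3028 genes were called in place of 1996 (1662 higher and 1366 lower). The other alternatives gave 1734 to 2312. With a replicate block the WT count was 2312 (1038 higher and 1274 lower), and the block ended the calls of 4 of 154 named genes and list members that had one, among them Marcks. Leaving out 1 library gave 915 to 1650. In the cKO table only the libraries compared gave 2192 in place of 1429, and leaving out 1 library gave 244 to 1551. The age difference was called for 1 gene, for 3 without a filter and for 3 with only the libraries compared, for 1 with the block, and for 1 to 5 with 1 library left out. The cause of these shifts was not tested. The genotype difference was called for 0 genes under every alternative run. No paired analysis was run for the cKO table and the genotype difference, since the cKO columns carry numbers that do not match the titles. Of 155 named genes, 117 kept their side of the threshold under all settings that keep every library and 74 in every fit that left out 1 library, and none changed sign. Rescaling ended 23 calls, no filter 20 (Prdx1, Amd1, Eif4ebp1, Gpx1, Hspe1, Dynlrb1, Erc2, Unc5a and Hbb-b2 among them) and the pseudocount of 0.1 ended 14 (with Ifi27l1, Txnrd3, Erc2, Gabra5 and Unc5a). The depth in fragments is unknown, so no counting error is given. Polysome and total RNA of equal number deviate together, and the fits without the block took them as independent.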
